A study of Mus musculus with 16 samples.

Results

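Srf, its coactivators myocardin (Myocd), Mkl1 and Mkl2, the Mef2 factors Mef2a, Mef2c and Mef2d, and the zinc finger factors Gata4 and Gata6 were followed across the cell classes of the mouse thoracic aorta. The 9 genes were matched by symbol among the 31055 features of the single-cell tables, and all 9 were found. Their molecules, each tagged with a unique molecular identifier (UMI), were summed per library in 3 classes set by marker UMIs. Vascular smooth muscle cells (VSMCs) had at least 5 Myh11 UMIs and more Myh11 than Dcn, fibroblasts had at least 5 Dcn UMIs and more Dcn than Myh11, and the endothelial class had at least 2 UMIs of Pecam1 and Cdh5 together.

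SRF is a DNA-binding protein that recognises CArG boxes in the promoters of contractile, cytoskeletal and immediate early genes, and its output depends on the partner it holds. Myocardin is a potent SRF coactivator of cardiac and smooth muscle and drives the contractile program, whereas the myocardin-related factors MRTF-A (Mkl1) and MRTF-B (Mkl2) are kept out of the nucleus by monomeric actin and enter it when actin polymerises. MEF2 proteins belong to the same MADS-box superfamily as SRF and are held in check by class IIa histone deacetylases, and GATA4 and GATA6 are factors of heart and vascular development, GATA6 being the best known of the family in arterial smooth muscle.

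The 16 libraries came from separate male 129S6/SvEv mice that all carried the Myh11-CreER transgene, which is active in smooth muscle cells and sits on the Y chromosome, and all mice received tamoxifen from 6 weeks of age. Mice with 2 floxed Smad3 alleles are named Smad3SmKO and lose Smad3, a transducer of TGF-beta signals, in cells with active Cre, and Smad3+/+ mice with the same Cre and tamoxifen were the controls. Aorta from the root to the arch was taken 10 weeks after deletion (2 Smad3+/+ and 2 Smad3SmKO mice) or 18 weeks after it (5 Smad3+/+ and 7 Smad3SmKO mice), digested for 30 or 60 min, and sorted for live cells with DNA. All 10-week libraries were batch 4 with a 60 min digestion, so weeks, batch and digestion cannot be told apart there, and at 18 weeks the shorter digestion was that of batches 1 to 3 and the longer that of batches 5 and 6. Some mice also carried a GFP tracer switched on by the Cre.

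After the cell limits, 50858 of 66349 barcodes were kept, with 12539539 to 52843031 UMIs deposited per library. VSMCs numbered 8950 (22 to 1706 per library), fibroblasts 36066 (196 to 5505) and the endothelial class 3303 (31 to 469). Of the endothelial class, 2049 cells (62%) also met another rule, 1813 of them that of fibroblasts and 236 that of VSMCs, so its values are given for the rule as written and for the 1254 cells that met it alone (15 libraries with at least 20 such cells). Any pair of libraries shared 0 to 11 barcodes. In 4 libraries GFP went against the tracer label: both libraries labelled Smad3SmKO at 10 weeks had GFP UMIs (246 and 165) with no tracer in the label, and replicates 4 and 5 labelled Smad3+/+ at 18 weeks had 0 with one. Smad3 itself in VSMCs averaged 5.04 ± 0.501 CPM (UMIs of the gene per 1000000 UMIs of the class in that library; SD, n = 2) in Smad3+/+ and 6.63 ± 2.05 (n = 2) in libraries labelled Smad3SmKO at 10 weeks, and 7.44 ± 2.79 (n = 5) and 9.32 ± 4.37 (n = 7) at 18 weeks, so its mean was not lower in the libraries labelled Smad3SmKO. The 3′ tags may lie outside the deleted exons, in which case this level checks nothing. By immunoblot and by quantitative PCR relative to Myh11, the study reported significantly less Smad3 protein and RNA in Smad3SmKO aortas. Replicate 7 labelled Smad3SmKO at 18 weeks stood apart, with 631 kept cells and fibroblasts that held 373 CPM of Myh11, and replicate 4 of that group had only 22 VSMCs.

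In mm10 with the GENCODE annotation, Srf lies at chr17:46548329-46556175 and Myocd at chr11:65176561-65269989, both on the minus strand. Mkl1 (chr15:81012281-81190757, minus strand) is annotated as Mrtfa and Mkl2 (chr16:13256481-13417529, plus strand) as Mrtfb. Mef2a is at chr7:67231163-67372858 (minus), Mef2c at chr13:83504034-83667080 (plus), Mef2d at chr3:88142372-88172086 (plus) and Gata4 at chr14:63198922-63271692 (minus). The 3′ tags were counted per gene, so exons, introns and transcript forms were not separated.

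The CArG box is the element that ties SRF to its targets and to its own gene, and a few of these boxes are printed to show the element. The motif searched was the CArG box of 10 letters, 2 C, then 6 letters that are each A or T, then 2 G, which reads as the same pattern on both strands. It was looked for in RefSeq promoter windows from 250 bases before to 50 bases after each start (GRCm38.p6), and 535 of 32851 windows (1.63%) and 488 of 27025 genes (1.81%) held one. Of the 6 members with a window in that table only Srf held a box, and it held a pair, whose last letters stood 73 and 53 bases before the start. In the lists of SRF targets used here, a box was found in 6 of 13 actin cytoskeleton genes (46.2%: Actg1, Vcl, Cnn2, Filip1l, Fhl1 and Fhl2), in 1 of 15 contractile genes (Myl9) and in 2 of 8 immediate early genes (Egr2 and Dusp5). A match is only a match of letters, and many contractile genes carry their boxes outside so short a window. Each sequence below is on the strand of its gene, with the box in capitals.
Srf (chr17:46556200-46556259, minus strand): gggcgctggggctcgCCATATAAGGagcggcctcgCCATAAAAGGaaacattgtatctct
Vcl (vinculin, chr14:20929156-20929195, plus strand): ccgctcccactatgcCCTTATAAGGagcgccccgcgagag
Cnn2 (calponin of non-muscle and muscle cells, chr10:79988529-79988568, plus strand): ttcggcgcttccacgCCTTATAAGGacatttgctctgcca
Actg1 (cytoplasmic gamma actin, chr11:120348561-120348600, minus strand): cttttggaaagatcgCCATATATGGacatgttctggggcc
Myl9 (regulatory myosin light chain, chr2:156775288-156775327, plus strand): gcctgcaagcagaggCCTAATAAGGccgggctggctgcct

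Srf and myocardin were both higher in VSMCs than in fibroblasts of the same library, and the MRTF genes were not. Myocd was measured at 36.3 CPM in the lowest VSMC library, 50.9 at the median and 123 in the highest, against 0.466, 1.07 and 8.62 CPM in fibroblasts. The classes did not overlap, and the estimate was 35.3-fold higher in VSMCs (log2 fold change 5.14, SE 0.27, adjusted p = 1.05e-18, 16 libraries). VSMCs were chosen by Myh11, a gene of the contractile program that myocardin drives, so the Myocd difference is a description. Srf ranged from 22.3 CPM over a median of 44.1 to 51.7 CPM in VSMCs, and from 10.4 over 16.2 to 33.8 CPM in fibroblasts. It was higher in VSMCs in 16 of 16 libraries, 2.38-fold (log2 fold change 1.25, SE 0.09, adjusted p = 5.41e-15), so the partner and the DNA-binding factor differed between the classes by very unequal amounts. Mkl1 averaged 8.17 ± 4.55 CPM in VSMCs and 7.56 ± 2.19 in fibroblasts (SD, n = 16; log2 fold change 0.09, SE 0.13, adjusted p = 0.525), and Mkl2 16.7 ± 5.89 and 17.5 ± 4.48 CPM (log2 fold change -0.12, SE 0.11, adjusted p = 0.302). Neither MRTF gene passed the test, with 95% bounds of -0.16 to 0.34 for Mkl1 and -0.34 to 0.09 for Mkl2 on the log2 scale.

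Counts over single cells gave the same order for myocardin. After each cell was thinned to 2000 UMIs, 9.42% of VSMCs (exact binomial 95% interval 8.82 to 10, counting error only) and 0.274% of fibroblasts (0.223 to 0.334) held a Myocd UMI, against 33.5% and 1.09% before thinning. For Srf the thinned shares were 7.14% and 3.37%, and for Mkl1 1.6% and 1.45%. Median depth per library was 5812 to 21902 UMIs per VSMC and 4318 to 26326 per fibroblast. Every fibroblast sum held some Myocd UMIs, 202 over the 5 libraries above 2 CPM of Myocd and 270 over the 11 below it. The fibroblasts of those 5 libraries had 56.1 to 373 CPM of Myh11, and those of the 11 had 6.01 to 53.5. Whether these were free RNA, doublets or expression was not tested.

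The Mef2 genes were all higher in VSMCs. Mef2c ranged from 164 to 435 CPM (median 308) in VSMCs and from 47 to 146 CPM (median 81.1) in fibroblasts, and the classes did not overlap (3.85-fold, log2 fold change 1.94, SE 0.10, adjusted p = 1.46e-18). Mef2a ranged from 142 to 301 CPM (median 159) in VSMCs and from 60.2 to 110 CPM (median 75.9) in fibroblasts, also without overlap (2.27-fold, log2 fold change 1.18, SE 0.08, adjusted p = 9.97e-16). Mef2d, at 37.9 ± 14 and 19 ± 3.58 CPM (n = 16), overlapped across libraries but was higher in VSMCs within each of the 16 (1.94-fold, log2 fold change 0.96, SE 0.08, adjusted p = 5.50e-13). All members of the MEF2 group except Mef2b, which did not pass the filter in this comparison, therefore moved the same way as Srf.

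The GATA genes went the other way. Gata4 was at 3.78 to 35.6 CPM (median 10.7) in VSMCs and 6.05 to 39.7 CPM (median 22.4) in fibroblasts, and was higher in VSMCs in only 2 of 16 libraries (1.82-fold lower in VSMCs, log2 fold change -0.86, SE 0.14, adjusted p = 1.98e-06). Gata6, a gene of chromosome 18, was at 107 ± 14.1 CPM (SD, n = 16; lowest 80.6, median 108) in VSMCs and 135 ± 25.1 CPM (lowest 76.7, median 136) in fibroblasts, a small difference (1.19-fold lower in VSMCs, log2 fold change -0.25, SE 0.06, adjusted p = 1.39e-04) whose ranges overlapped widely. Markers of heart muscle, which also uses GATA4, summed to 43.3 to 501 CPM in VSMCs and 10.1 to 233 in fibroblasts. Most of this was Tnnt2 (195 ± 120 against 34.9 ± 53.1 CPM, n = 16), while Myh6 was at 1.23 ± 1.39 and 0.776 ± 0.98 CPM, and of the 4 markers tested 2 were higher and 2 lower in VSMCs. With cells rich in heart muscle transcripts left out, the Gata4 log2 fold change was -1.07 (SE 0.16, adjusted p = 1.82e-07). Since Tnnt2 was higher in VSMCs, the class with less Gata4, this does not test the part of such cells in the result.

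Counted together, 7 of the 9 members differed between VSMCs and fibroblasts, 5 higher and 2 lower in VSMCs. Of the 11959 genes tested, 74.5% differed, 36% higher and 38.5% lower, so the members' share is close to that of genes at large, whose median log2 fold change was -0.02. In bulk sums of this kind, fewer cells with a transcript and less RNA per cell cannot be told apart.

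**Figure D1:**
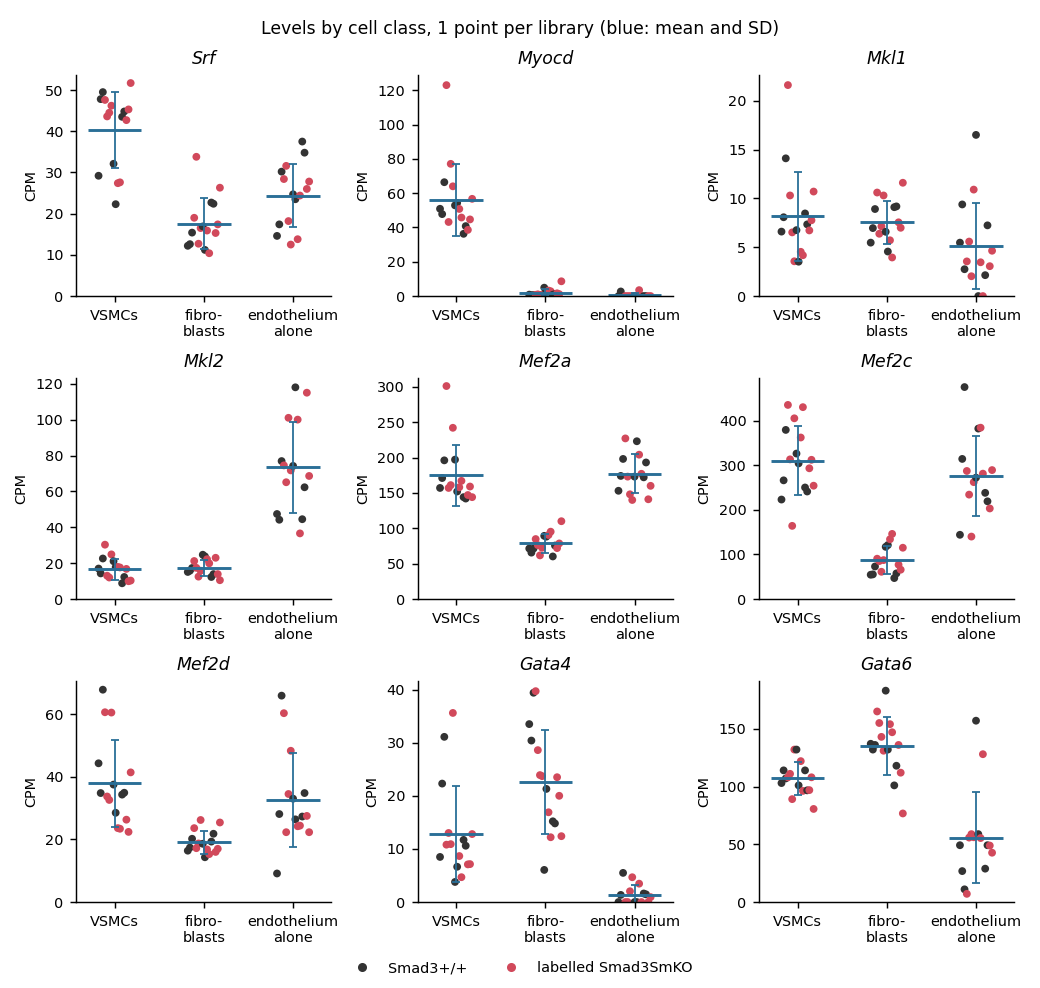
Level of each of the 9 genes in VSMCs, fibroblasts and the cells that met only the endothelial rule, in CPM on an axis from 0; each point is 1 library, black for Smad3+/+ and red for those labelled Smad3SmKO, and the blue bars are the mean and SD. Myocd is 36.3 CPM or more in every VSMC sum and 8.62 or less in every fibroblast sum, and Mkl2 is highest in endothelial cells.

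Endothelial cells held much Mef2 and Mkl2 message, little Gata4 and almost no myocardin. In the cells that met only the endothelial rule, the 8 endothelial markers summed to 3153 to 4797 CPM, the VSMC markers to 194 to 5024 and the fibroblast markers to 234 to 2085. Leukocyte markers summed to 14.2 to 2111 CPM (median 301, against 18.5 in VSMCs and 78.3 in fibroblasts) and pericyte markers to 94.8 to 2074 CPM (median 337), and their part in the levels below was not tested. Mkl2 averaged 73.3 ± 25.5 CPM there (SD, n = 15), and it was lower in VSMCs in 15 of 15 libraries (4.29-fold, log2 fold change -2.10, SE 0.13, adjusted p = 1.11e-16) and lower in fibroblasts (log2 fold change -1.92, SE 0.11, adjusted p = 7.53e-17). Among the 3 classes, Mkl2 message was thus highest in these endothelial cells. Mef2a at 177 ± 27.4 and Mef2c at 275 ± 89.5 CPM were near their VSMC levels (VSMCs against endothelial cells, log2 fold change 0.10, SE 0.09, adjusted p = 0.362 for Mef2a and 0.33, SE 0.12, adjusted p = 0.0125 for Mef2c), and both were lower in fibroblasts. Myocd was 0.409 ± 1.09 CPM, 3 UMIs over 1254 cells, and Gata4 1.4 ± 1.81 CPM, 13 UMIs, so that VSMCs exceeded endothelial cells by log2 fold changes of 7.09 (SE 0.66) and 3.23 (SE 0.35), values that rest on those few UMIs. Gata6 was 55.6 ± 39.3 CPM, lower than in VSMCs (log2 fold change 1.32, SE 0.15, adjusted p = 1.47e-09) and than in fibroblasts (1.66, SE 0.15, adjusted p = 3.63e-12), Srf at 24.4 ± 7.71 CPM lay between fibroblasts and VSMCs, and Mkl1 at 5.11 ± 4.41 CPM was lower than in both.

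With the endothelial rule as written, which kept the cells of the other classes in, 7 of 9 members differed from VSMCs and 7 from fibroblasts. Of all genes tested 68.3% differed from VSMCs, 34.1% being higher and 34.2% lower in VSMCs, and 40.8% differed from fibroblasts, 22.6% being higher and 18.2% lower in fibroblasts. Against VSMCs, Mkl2 was higher in the endothelial class (log2 fold change -1.01, SE 0.12, adjusted p = 2.84e-09) and 6 members were lower in it, Myocd by most (3.45, SE 0.31, adjusted p = 4.87e-12). Against fibroblasts, the class was higher in Mkl2, Mef2c, Mef2a, Mef2d and Myocd and lower in Gata4 and Gata6. Of these, Myocd changed sign without the cells that met 2 rules (fibroblasts against endothelium -1.69, SE 0.39, adjusted p = 5.99e-04 as written, 1.99, SE 1.28, adjusted p = 0.175 without them). With those cells out, 67.2% of all genes differed between VSMCs and endothelium and 62.7% between fibroblasts and endothelium.

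The genes known to answer to SRF and its partners split by kind between VSMCs and fibroblasts. All 18 contractile targets were higher in VSMCs (median log2 fold change 4.83), among them Smtn (smoothelin, 3.57, SE 0.16), Ppp1r12b (a myosin phosphatase subunit, 3.13, SE 0.15) and Tpm1 (tropomyosin, 3.58, SE 0.18), though VSMCs were chosen by Myh11, a gene of the same program, so that this is a description. Of the 14 actin cytoskeleton targets 11 were higher (median 1.42), led by Tln1 (talin, 1.80, SE 0.06), Zyx (zyxin, 1.99, SE 0.09) and Vcl (vinculin, 2.08, SE 0.10). Tagln2 (-0.63, SE 0.09) and Tpm4 (-0.81, SE 0.08) were lower, and Actg1, whose promoter box is printed above, did not pass (0.16, SE 0.07, adjusted p = 0.055). The 12 immediate early targets went the other way, 10 lower in VSMCs and 2 not passing (median -1.03), with Egr2 (-3.17, SE 0.20), Egr3 (-2.10, SE 0.15) and Ier2 (-1.32, SE 0.16) lowest in p. These genes also answer to cell handling: the summed level of 20 genes of digestion stress, some shared with this list, was 4118 to 16609 CPM in VSMCs and 8327 to 20169 CPM in fibroblasts, and its part in the result was not tested.

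Partners and regulators showed no common direction. Of the 24, 22 were tested, 5 were higher and 11 lower in VSMCs and 6 did not pass (median -0.15). Rock1 and Rock2, kinases that drive actomyosin contraction, were higher (log2 fold change 2.40, SE 0.08, and 1.04, SE 0.05), as were the class IIa deacetylases Hdac9 (3.33, SE 0.23) and Hdac5 (1.08, SE 0.09), which bind MEF2, and Hand2 (0.69, SE 0.09), a cardiac helix-loop-helix factor. Klf4, a factor that opposes myocardin, was among the lower (-2.08, SE 0.23), named here after its value was seen. Of the other GATA and MEF2 genes 2 of 5 were tested, and Gata3 was lower in VSMCs (4.01-fold, SE 0.28 on the log2 scale, adjusted p = 6.75e-08) while Gata2 did not pass (-0.16, SE 0.38).

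**Figure D2:**
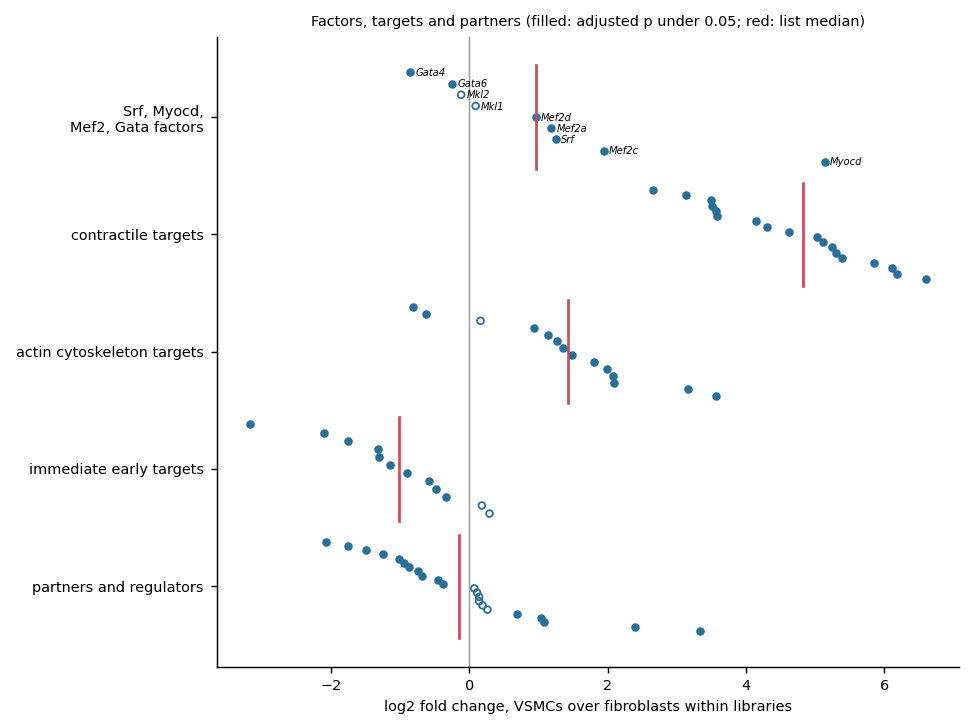
Log2 fold change of VSMCs against fibroblasts for the 9 members and for the lists of SRF targets and partners, 1 point per gene, filled where the adjusted p passed, with the median of each list in red. All 18 contractile targets lie to the right of 0 and 10 of 12 immediate early targets to the left of it.

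Within VSMCs, Gata4 differed most. The study's regional genes were used to split VSMCs into those with Notch3 or Enpep UMIs (at least 2 and more than Ptprz1 and Tes; 461 cells) and those with Ptprz1 or Tes UMIs (the mirror rule; 4425 cells), in the 11 libraries with at least 20 of each, and the 4 genes that set the split were left out of the test. Gata4 in the Notch3/Enpep VSMCs was 13.9, 31.1, 19.1 and 30 CPM in the Smad3+/+ 18-week replicates 1, 2, 4 and 5, 31.7, 24.1 and 21.4 in replicates 2, 5 and 7 labelled Smad3SmKO at 18 weeks, 34.7 and 26.1 in the Smad3+/+ 10-week and 18.4 and 26.8 in the 10-week libraries labelled Smad3SmKO. In the Ptprz1/Tes VSMCs of the same libraries it was 0, 13.3, 7.21 and 5.97, then 2.23, 3.51 and 7.25, then 3.35 and 3.05, then 4.47 and 2.11 CPM. The subsets did not overlap, since the lowest Notch3/Enpep value (13.9) was above the highest Ptprz1/Tes value (13.3), and the first was higher in 11 of 11 libraries: 25.2 ± 6.49 against 4.77 ± 3.6 CPM (SD, n = 11), 4.8-fold (log2 fold change 2.26, SE 0.25, adjusted p = 1.81e-07). The 0 was a library of 28 cells and 0 UMIs, and the Notch3/Enpep sums held 3 to 32 Gata4 UMIs each. The filter on low counts may have admitted Gata4 through the Notch3/Enpep sums, where it was high. The call was also made with no filter on low counts.

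Mef2c and Gata6 also differed between these VSMCs, in opposite directions and by less. Mef2c was 369 ± 96 CPM in the Notch3/Enpep VSMCs and 279 ± 70.4 in the Ptprz1/Tes VSMCs, higher in 11 of 11 libraries though the ranges overlapped (1.34-fold, log2 fold change 0.43, SE 0.07, adjusted p = 3.85e-05). Gata6 was 82.3 ± 10.4 against 112 ± 19.8 CPM, lower in 10 of 11 (1.29-fold, log2 fold change -0.37, SE 0.09, adjusted p = 0.00351). Gata6 missed the threshold without the libraries whose GFP went against the label (log2 fold change -0.35, adjusted p = 0.0503). Srf (log2 fold change 0.23, SE 0.10, adjusted p = 0.14) and Myocd (0.22, SE 0.12, adjusted p = 0.237) did not pass, nor did Mef2a, Mef2d and Mkl2, and Mkl1 was filtered out. So 3 of the 8 members tested differed, 2 higher and 1 lower, against 21.1% of the 6899 genes tested, 10.3% higher and 10.8% lower. With higher thresholds 3 libraries were left, and only Gata4 passed in them (log2 fold change 2.30, SE 0.45, adjusted p = 0.00861).

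Counts of cells gave the same direction for Gata4. After thinning to 2000 UMIs, 5.18% of all 541 Notch3/Enpep VSMCs (exact binomial 95% interval 3.47 to 7.39, counting error only) and 0.695% of all 4605 Ptprz1/Tes VSMCs (0.476 to 0.98) held a Gata4 UMI, and before thinning 24.8% and 4.39%. Over libraries with at least 20 cells of the subset, the thinned shares ran from 0 to 10% and from 0 to 2.04%, so they overlapped. These cells include those of the sums above. Other lists moved with the same split, and their part in the result was not tested. Of the digestion-stress genes 17 of 20 were higher in the Notch3/Enpep VSMCs (median log2 fold change 1.20, summed level 7803 to 23390 against 3052 to 12091 CPM), and so were 8 of 9 immediate early targets tested. The pericyte markers summed to 135 to 2730 against 362 to 878 CPM. Among them, Higd1b was at 42.8 ± 24.3 against 0.0339 ± 0.112 CPM and Vtn at 11.5 ± 20 against 0.00693 ± 0.023 (SD, n = 11). Rgs5 (474 ± 668 against 300 ± 141 CPM) and Kcnj8 (15.1 ± 8.13 against 18.1 ± 5.53) overlapped. With cells holding 2 or more UMIs of 4 markers (Vtn, Higd1b, Kcnj8 and Abcc9) left out, the Gata4 log2 fold change was 1.95 (SE 0.27, adjusted p = 1.70e-05). Cells with fewer such UMIs stayed in. The fibroblast markers summed to 702 to 3808 against 1075 to 2716 CPM and the heart muscle markers to 10.4 to 250 against 43.2 to 219. Of the SRF pathway, Fhl2, an SRF cofactor, was 5.22-fold higher (log2 fold change 2.38, SE 0.13, adjusted p = 3.32e-12), as were Klf4 (1.67, SE 0.20) and Tbx20, a cardiac T-box factor (1.52, SE 0.17). Of the contractile targets 7 were higher, 3 lower and 8 not passing (median 0.02), Pcp4l1 higher (1.14, SE 0.13) and Des lower (-0.97, SE 0.15).

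**Figure D3:**
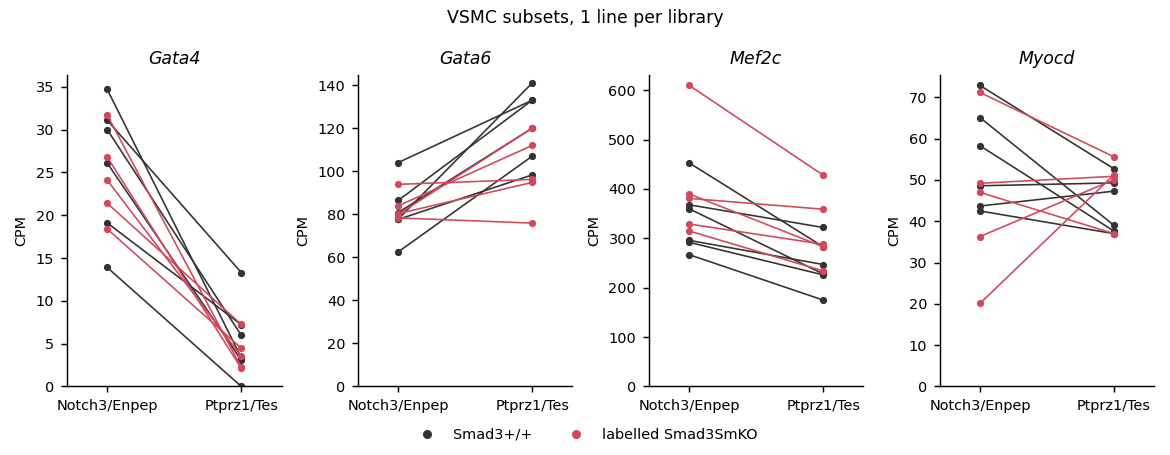
Levels of Gata4, Gata6, Mef2c and Myocd in Notch3/Enpep VSMCs and Ptprz1/Tes VSMCs of the same 11 libraries, in CPM, with a line joining the values of each library. All 11 Gata4 lines are higher at the Notch3/Enpep end (25.2 against 4.77 CPM on average), and 10 of 11 Gata6 lines are lower there.

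The genotype comparison asks whether loss of Smad3 in smooth muscle moved these factors, before dilation was detectable (10 weeks) and when it was moderate (18 weeks). No member passed the test in any class or at either time. Replicates 5 and 7 labelled Smad3SmKO at 18 weeks were the only libraries of their batch. The batch term of the fit in each class absorbed them, so they added nothing to the 18-week estimate. The 18-week log2 fold changes therefore rest on the 4 batches with both genotypes, while the levels listed beside them cover all 7 libraries labelled Smad3SmKO. In VSMCs at 10 weeks 0 of 9 members were called (0% of the 11852 genes tested, 219 of them at an unadjusted p under 0.05, 1 called by DESeq2), and at 18 weeks 0 of 9 (0.0422% of all genes, 582 at an unadjusted p under 0.05, 8 called by DESeq2). No member was called by DESeq2 either.

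Srf in VSMCs was 29.2, 47.8, 49.5, 43.5 and 44.8 CPM in the Smad3+/+ 18-week replicates 1 to 5, and from 42.7 over a median of 45.3 to 51.7 CPM in the 7 libraries labelled Smad3SmKO. The groups overlapped and the genotype effect was 0.16 (log2, SE 0.14, adjusted p = 1, 95% bounds -0.12 to 0.44). At 10 weeks it was 32.1 and 22.3 CPM in Smad3+/+ and 27.4 and 27.6 in the libraries labelled Smad3SmKO (log2 fold change 0.04, SE 0.17). Myocd was 50.9, 47.8, 66.4, 36.3 and 40.8 CPM in Smad3+/+ at 18 weeks, and from 38.6 over 56.7 to 123 CPM in libraries labelled Smad3SmKO (log2 fold change 0.37, SE 0.18, unadjusted p = 0.0627, adjusted p = 1). The 123 came from replicate 1, with 57 Myocd UMIs, and 5 of the 7 libraries lay within the Smad3+/+ range. At 10 weeks the estimate had the other sign, with 52.9 and 54.3 CPM in Smad3+/+ and 50.8 and 45.8 CPM in the libraries labelled Smad3SmKO (log2 fold change -0.13, SE 0.23, adjusted p = 1, 95% bounds -0.58 to 0.32).

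Mef2a came nearest to a call in VSMCs. It was 157, 171, 196, 144 and 142 CPM in Smad3+/+ at 18 weeks and from 144 over 159 to 301 CPM in libraries labelled Smad3SmKO (log2 fold change 0.26, SE 0.12, unadjusted p = 0.0454, adjusted p = 1), and within batches the log2 difference was 0.01, 0.62, 0.50 and 0.15 in batches 1, 2, 3 and 6. Mef2c was 223, 266, 379, 250 and 241 CPM in Smad3+/+ and from 164 over 312 to 435 CPM in libraries labelled Smad3SmKO (log2 fold change 0.29, SE 0.17). At 10 weeks it was 326 and 304 CPM against 362 and 430 CPM (log2 fold change 0.35, SE 0.25, adjusted p = 1), and within batches 1, 2, 3, 4 and 6 the log2 difference was 0.10, 0.20, 0.61, 0.33 and 0.35. Mef2d went down in the fit at both times without passing (-0.46, SE 0.23, unadjusted p = 0.0659, at 10 weeks and -0.26, SE 0.19, at 18 weeks). Its 10-week mean was 33 CPM in Smad3+/+ and 23.5 CPM in the libraries labelled Smad3SmKO, and these groups of 2 did not overlap. At 18 weeks it ranged from 34.3 to 67.8 CPM in Smad3+/+ and from 22.4 to 60.6 in libraries labelled Smad3SmKO. Within batches 1, 2, 3, 4 and 6 the Mef2d log2 difference was -0.42, -0.16, 0.80, -0.49 and -0.63.

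The GATA genes of VSMCs overlapped between genotypes. Gata4 was 8.49, 22.3, 31.1, 11.7 and 10.6 CPM in Smad3+/+ at 18 weeks and from 7.09 over 10.9 to 35.6 CPM in libraries labelled Smad3SmKO (log2 fold change -0.22, SE 0.36, 95% bounds -0.93 to 0.48). Gata6 was 103, 114, 107, 114 and 96.7 CPM against 104 ± 16.6 CPM (SD, n = 7; lowest 80.6, median 108) (log2 fold change 0.04, SE 0.13, 95% bounds -0.22 to 0.30), the narrowest estimate but that of Mef2a. Mkl1 (0.15, SE 0.29) and Mkl2 (0.04, SE 0.25) rested on 1 to 127 and 7 to 317 UMIs per library. In the Notch3/Enpep VSMCs the Gata4 values of both genotypes, listed above, overlapped at each time.

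**Figure D4:**
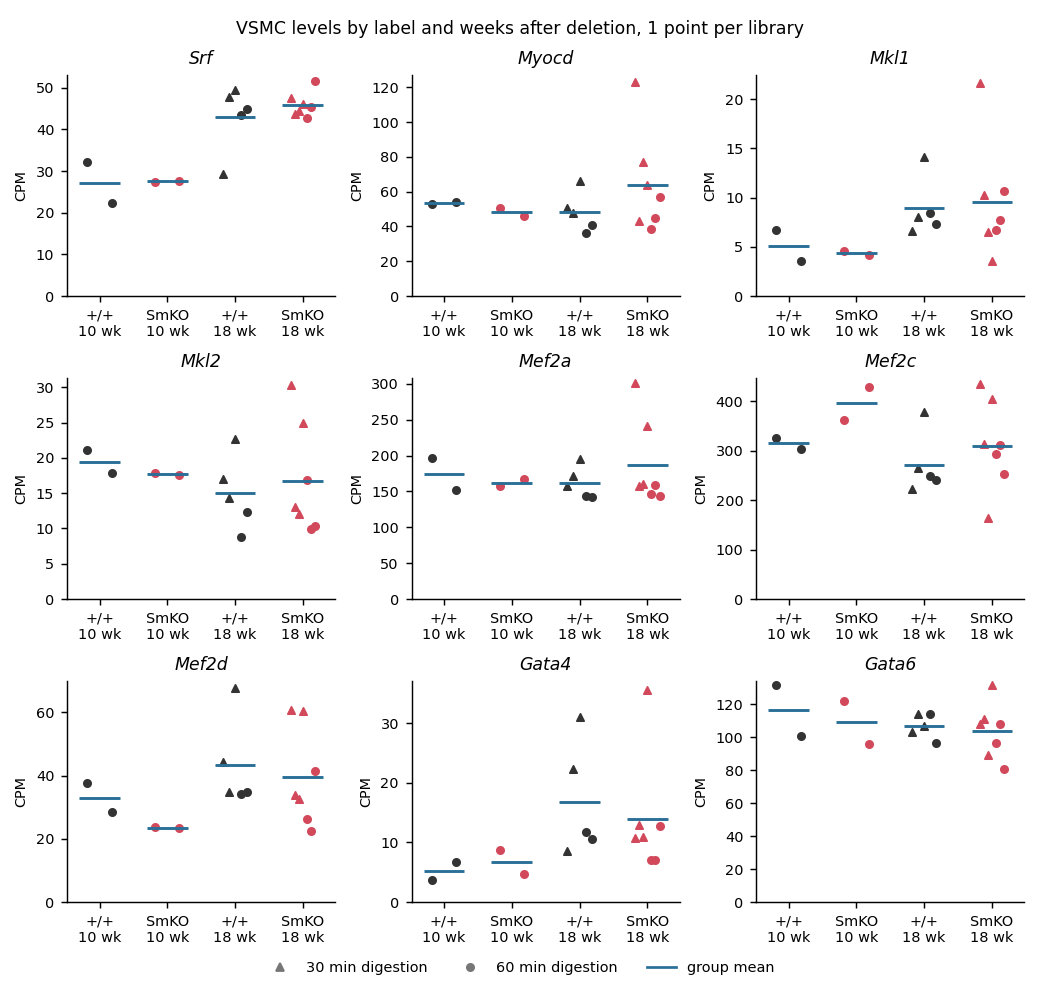
VSMC level of each member in the 16 libraries by genotype and weeks, in CPM; points are libraries (triangles digested for 30 min, circles for 60 min) and bars are group means. Srf lies at 22.3 to 32.1 CPM in all 4 libraries of 10 weeks and at 29.2 to 51.7 CPM at 18 weeks, and the genotypes overlap at 18 weeks for all 9 genes.

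Fibroblasts are not a target of the Myh11-CreER transgene, and in them 0 of 9 members were called at either time (0% of 14626 genes tested; 119 and 363 genes at an unadjusted p under 0.05, 3 and 3 called by DESeq2). The nearest was Mef2c at 18 weeks, with 54.5, 55.3, 73, 47 and 57.5 CPM in Smad3+/+ and from 61.1 over 85.1 to 115 CPM in libraries labelled Smad3SmKO, 5 of the 7 above all Smad3+/+ values (log2 fold change 0.45, SE 0.14, unadjusted p = 0.00933, adjusted p = 1). It was higher in the Smad3SmKO libraries within each of the 4 mixed batches of 18 weeks (log2 0.42, 0.31, 0.66 and 0.33) and in batch 4 at 10 weeks (0.24). The difference between the VSMC and fibroblast effects on Mef2c, from its own fit, was -0.40 (SE 0.18, unadjusted p = 0.0365, adjusted p = 0.725). That fit had library as a block and no batch term, so replicates 5 and 7 labelled Smad3SmKO count in it. The -0.40 therefore need not equal the difference of the effects given for each class. No member was called in this test at 10 or 18 weeks (0% of 14465 genes, 217 and 929 at an unadjusted p under 0.05, 0 and 7 called by DESeq2). In the endothelial class as written 0 of 9 were called (0% of 11683 genes; 427 and 361 at an unadjusted p under 0.05, 7 and 0 called by DESeq2), and its largest value, Gata4 at 10 weeks (log2 fold change 3.55, SE 1.33, unadjusted p = 0.0192), rested on 1 UMI against 11. The change of the genotype effect from 10 to 18 weeks was not called for any member in VSMCs (0.00844% of all genes), fibroblasts or the endothelial class (0% in both).

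**Figure D5:**
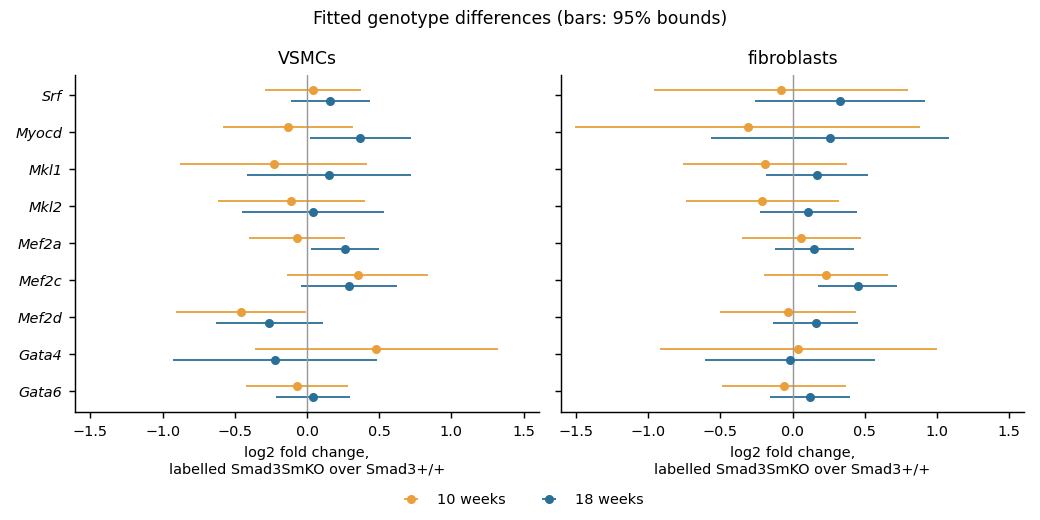
Log2 fold change of Smad3SmKO against Smad3+/+ for each member in VSMCs and fibroblasts at 10 and 18 weeks, with bars that span the normal 95% bounds. None of the 9 passed the adjusted test, and Mef2c in fibroblasts at 18 weeks, at 0.45, lies farthest from 0 relative to its SE.

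The lists of targets showed as little of genotype in VSMCs. At 18 weeks 0 of 18 contractile, 0 of 14 actin cytoskeleton, 0 of 12 immediate early and 0 of 22 tested partner genes were called, with medians of -0.08, 0.04, -0.03 and 0.01, and at 10 weeks 0 of the same numbers, with medians of -0.03, 0.03, -0.66 and -0.01 against -0.01 over all genes. The lower immediate early median at 10 weeks came with digestion stress of 5530 and 7486 CPM in Smad3+/+ and 4118 and 4257 CPM in the libraries labelled Smad3SmKO, and its part in the result was not tested. In the fit of the VSMC effect minus the fibroblast effect at 18 weeks, the contractile targets were all 18 below 0 (median -0.69) without any being called, and the VSMC markers summed to 617 to 1831 CPM in fibroblasts of Smad3+/+ and 593 to 12007 CPM in those of libraries labelled Smad3SmKO. Replicate 7 of the latter held 373 CPM of Myh11 and 5573 of Acta2 in fibroblasts, and replicate 5, the next highest, 53.5 and 1390. In the fits with a batch term, to which replicates 5 and 7 added nothing, the 18-week contractile medians were -0.08 in VSMCs and 0.06 in fibroblasts. The -0.69 therefore should not be read as an effect of genotype in VSMCs. The part of replicate 7 in these values was not tested.

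Srf in VSMCs was lower in all 10-week libraries than in 11 of the 12 of 18 weeks, with 27.3 ± 4.02 CPM (n = 4) against 44.7 ± 5.54 (n = 12), and since weeks and batch 4 cannot be told apart no test was made. Gata4 showed 5.94 ± 2.17 against 15.1 ± 9.42 CPM in VSMCs, and Mef2c in fibroblasts 130 ± 13.3 against 72.5 ± 19.6 CPM, with all 4 values of 10 weeks (117 to 146) above the highest of 18 weeks (115). Between digestions of 60 and 30 min at 18 weeks, which are also different batches, 0 of 9 members were called in VSMCs (3.55% of 10164 genes) and 0 of 9 in fibroblasts (1.95% of 14285). The nearest in fibroblasts were Gata4, at 31.3 ± 6.58 CPM (n = 7) after 30 min and 17.2 ± 4.5 (n = 5) after 60 min (log2 fold change -0.64, SE 0.19, adjusted p = 0.0864), and Myocd, at 0.706 ± 0.174 and 2.66 ± 3.35 CPM (1.70, SE 0.52, adjusted p = 0.0973). DESeq2 called both (8.16% of all genes). Without replicate 7 labelled Smad3SmKO, the 60 min mean of Myocd was 1.16 ± 0.346 CPM (n = 4) and the log2 fold change 0.88 (adjusted p = 0.108). The 9 VSMC markers were also all above 0 in this fibroblast comparison, 1 of them called (median 1.47), and their part in the Myocd value was not tested. In VSMCs Gata4 was 18.9 ± 10.9 and 9.87 ± 2.63 CPM (log2 fold change -0.66, SE 0.28, adjusted p = 0.218).

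The genes most like each member over the 48 class-by-library sums were named by Pearson's r of log2(CPM + 1) among 8231 genes, as a description, since the sums share libraries and differ mostly by class. For Myocd they were Lmod1 (0.98), Mylk (0.97) and Slmap (0.97), and Lmod1 (leiomodin) and Mylk (myosin light chain kinase) are themselves smooth muscle genes. Srf was most like Ehbp1l1 (0.90), Jph2 (0.87) and Wtip (0.86), and Mef2c most like Filip1 (0.95), Rassf3 (0.94) and Tspan2 (0.93). Mef2a went with Stom (0.95), Prdm16 (0.94) and Fam241a (0.93), and Mef2d with Arhgef2 (0.91), Syne1 (0.89) and Adcy6 (0.88). Mkl2 was most like 4931406P16Rik (0.83), Map3k1 (0.82) and Calcrl (0.81), and Calcrl encodes a receptor abundant in endothelium. The lowest likenesses were those of Gata4 (Gnb5 0.83, Coq8b 0.83, Ift22 0.78), Mkl1 (Atg9a 0.80, Cdk10 0.78, Sh3pxd2b 0.73) and Gata6 (Omd 0.75, Peg3 0.73, Pid1 0.73).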

How the data were processed

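The deposited files held, per library, a matrix of UMI counts per gene and barcode; per the labels the authors made these counts from 10x Genomics 3′ v3 reads with Cell Ranger 6 (the file headers name 4.0.0) on mm10 with GFP added, with no normalization. The study's own limits were applied to the barcodes (over 600 and under 6000 genes, over 2000 and under 50000 UMIs, under 25% mitochondrial), and the barcodes in the files and those kept were each slightly more than the study states. No doublet caller was run, so doublets remain below the upper limits. Each library was 1 mouse.

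UMIs were summed per library and class, sums of under 20 cells were left out, and edgeR 4.0.16 (R 4.3.3) was run on all genes that passed filterByExpr (minimum count 10) with TMM scaling and its quasi-likelihood test. P-values were two-sided and Benjamini-Hochberg adjusted over all genes tested, a call is an adjusted p under 0.05, and the SE is the log2 fold change divided by the root of F. Classes and subsets were compared with library as a block, genotypes at 10 and 18 weeks in 1 fit over 16 libraries with batch as a term, and digestion over the 18-week libraries with genotype as a term. In the genotype fit, replicates 5 and 7 labelled Smad3SmKO at 18 weeks were alone in their batch and added nothing to the 18-week estimate. In the 10-week comparison (2 against 2) the spread was shared with the 18-week groups. Levels are CPM of the sums, and 95% bounds are normal, so they can leave out 0 where the unadjusted p is above 0.05. The fits were tested on simulated counts. Shares of cells used counts thinned to 2000 UMIs, and intervals cover counting error only. DESeq2 1.42.0, other scaling, filters, thresholds and cells, and each library left out were alternatives.

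The named genes were the 9 members, the 3 genes with the smallest p in each fixed list, and the 3 most like each member (mean of at least 10 CPM, pseudocount 1). The members, lists and tests were chosen with earlier results of these data known. Promoter sequences are from RefSeq, and gene positions from GENCODE. Sums and plots were made with pandas 2.3.3 and matplotlib 3.10.9, intervals with scipy 1.17.1 and arrays with numpy 2.4.6, under Python 3.11.15.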

Additional observations from a re-analysis of the deposited data

Results flagged for a closer look

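In groups of 4 to 10 libraries a value was marked when its gap to the nearest other value took most of the group's range by Dixon's criterion; 54 groups were tested and 9 values marked, where chance gives about 1 in 20. The values are given without explanation. Replicate 7 labelled Smad3SmKO at 18 weeks gave 4 of them, and its fibroblasts also held 373 CPM of Myh11: Myocd in fibroblasts was 8.62 CPM (next 1.61), and in the endothelial class as written Myocd was 34.4 CPM (next 8.94), Srf 45.4 CPM (next 25.9) and Mkl2 8.26 CPM, the lowest of the group (next 33.4), on 6 UMIs. Replicate 3 of Smad3+/+ at 18 weeks, with 48 VSMCs, gave 3: Mkl1 in VSMCs 14.1 CPM (next 8.46, 10 UMIs), Mef2c in VSMCs 379 CPM (next 266) and Mkl2 in the endothelial class 34.1 CPM (next 24.8). Mkl1 in VSMCs of replicate 1 labelled Smad3SmKO at 18 weeks was 21.6 CPM (next 10.7, 10 UMIs). Gata4 in VSMCs of replicate 4 of that group was 35.6 CPM (next 13), on 10 UMIs from 22 cells.

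Outside the members, 411 GFP UMIs stood in the 2 libraries labelled Smad3SmKO at 10 weeks without a tracer (246 and 165), and 0 in replicates 4 and 5 of Smad3+/+ at 18 weeks, which the labels give one.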

How the results depend on the processing

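The 7 members called between VSMCs and fibroblasts were called under all 26 alternatives, and no genotype comparison called a member under any alternative run. The members called between VSMCs and the endothelial class as written ran from 6 to 8 and between fibroblasts and that class from 7 to 8. Mkl1 against the endothelial class was not called without the libraries whose GFP went against the label (log2 fold change 0.35, adjusted p = 0.140), nor without Smad3+/+ 18-week replicate 2 (0.37, 0.0602), Smad3+/+ 18-week replicate 4 (0.31, 0.174) or Smad3SmKO 18-week replicate 1 (0.29, 0.0919). Myocd in fibroblasts against that class reversed from -1.69 to 1.99 (adjusted p = 0.175) with cells meeting 2 rules left out and was not called with higher class thresholds (-0.61, adjusted p = 0.42), and Mkl1 in fibroblasts against that class was called in 10 alternatives and not as reported. Between VSMC subsets 3 members were called and 1 with higher thresholds, where 3 libraries remained and Mef2c (0.45, adjusted p = 0.119) and Gata6 (-0.56, 0.123) missed, and Gata6 also missed without the libraries whose GFP went against the label (-0.35, 0.0503); Gata4 kept its call in the 25 alternatives that tested it (1.95 to 2.73) and did not pass the filter with VSMCs of 2 or more Dcn UMIs left out. For digestion in fibroblasts the count was 0, 2 with DESeq2 (Myocd 1.75, adjusted p = 0.0144; Gata4 -0.64, 0.0234) and 1 with cells holding pericyte transcripts left out (Gata4 -0.88, 0.0349). The causes of these changes were not tested, and some of the alternatives hold fewer libraries or cells. The alternatives on pericyte transcripts and on Dcn UMIs in VSMCs were chosen after seeing the data. The labels give no replicate numbers to pair by, and those used here only name libraries; library was the block in class and subset comparisons and batch a term in the genotype fits. Depth limits Mkl1 and Gata4 most, at 1 to 127 and 5 to 134 UMIs per VSMC sum.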
